A study of Mus musculus with 6 samples.

Results

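The genes described here carry mouse symbols made of Zfp and a number, the series name given to genes that encode zinc finger proteins. They were taken by that name from 2 deposited tables of RNA sequencing of E0771 cells, leaving out Zfp36, whose protein has another kind of finger and binds mRNA. Both tables list 258 such genes among 10932 genes in common. RefSeq GRCm38.p6 has 371 genes with such a name, of which 253 are among the 258 by symbol. Another 5 (Zfp108, Zfp423, Zfp433, Zfp458 and Zfp619) are listed in the 17-AAG table alone and were not counted.

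E0771 is a breast cancer cell line from a C57BL/6 mouse. Cells grown for 48 h were exposed for 24 h to Enniatin A (EnnA) at 7.4 µM, for 24 h to 17-AAG at 0.5 µM, or to the solvent DMSO for a time the labels do not state, with 2 libraries in each group. EnnA is a cyclic depsipeptide made by Fusarium moulds that acts as an ionophore, and 17-AAG is a geldanamycin derivative that blocks the chaperone HSP90. The labels name no other cells in the cultures. Of 7 markers of mammary epithelium, 2 were listed, Krt8 at 17.7 FPKM and Epcam at 1.61 FPKM with DMSO. Of 2 mesenchymal markers Vim was listed, far above these at 2746 FPKM with DMSO. Of 3 fibroblast markers Col1a1 was listed at 0.566 FPKM and Pdgfra at 10.1 FPKM with DMSO. Leukocyte and endothelial markers were listed for 0 of 6 and 0 of 2.

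Most of these genes encode proteins with tandem C2H2 fingers, short loops that each hold a zinc ion between a pair of cysteines and a pair of histidines and that read DNA bases. Many of them also carry a KRAB domain, which recruits the corepressor TRIM28 (KAP1) and through it SETDB1, heterochromatin protein 1 and histone deacetylases to silence retroelements and imprinted loci. KRAB zinc finger genes arose by repeated duplication and lie in clusters. A smaller number of Zfp-named genes have no such domain and encode transcription factors, RNA-binding proteins or ribosome factors.

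Each table gives 1 FPKM value per gene and group, pooled by the authors over both libraries, so no SD or n stands beside a level. A change is given as log2((compound + 1)/(DMSO + 1)) on the FPKM scale, which understates the change of weakly expressed genes. The standard error in brackets after a change was worked back from the authors' Cuffdiff p, and it is at most the value shown for genes at the lowest p listed. A gene is said to have risen or fallen where the q-value in the authors' deposited table was under 0.05. The labels do not say that libraries came from separate cultures, so these calls speak for these libraries alone. Depth per library is unknown because no counts were given, and fewer transcripts per cell cannot be told apart from fewer cells that carry them. Of the 258 genes, 8 share their locus with another listed gene and 15 have a near-identical copy, so their values are uncertain and are marked as such where they are named.

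The genes were weakly expressed. Their DMSO level in the EnnA table had a median of 5.44 FPKM (quartiles 2.65 and 10.95), against a median of 13.996 FPKM over all genes of that table, and ran from 0.374 FPKM (Zfp112) to 135 FPKM (Zfp207). Of the 258, 10 were under 1 FPKM with DMSO. The tables were scaled separately, and the DMSO value of a gene in the 17-AAG table was 1.10 times that in the EnnA table, except for Zfp781, at 1.61 times. The members were set beside other genes of the same DMSO range, 9983 for EnnA and 10109 for 17-AAG. This range takes in most of each table and is not a match on level. For EnnA the other genes of the range had a median DMSO level of 13.02 FPKM, against 5.44 FPKM for the members.

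With EnnA, falls outnumbered rises. Of the 258 genes, 95 (36.8%) fell and 48 (18.6%) rose, while 115 did not pass the threshold. Over all 11024 genes tested, 24.9% fell and 24.3% rose, and over other genes of the same DMSO range 25.4% fell and 23.6% rose. The median change was -0.16 (quartiles -0.56 and 0.20), against -0.02 for the other genes of the range and -0.01 for all genes. Changes below 0 were found for 159 of the 258 (61.6%) and for 51.5% of the other genes. Falls of at least 2-fold on the scale with 1 FPKM added numbered 19 (7.36%), against 4.42% over all genes, and rises of that size 3 (1.16%), against 3.90% over all genes. As plain FPKM ratios, a count chosen after seeing the data, 47 members fell and 4 rose at least 2-fold, against 8.67% and 5.45% over all genes above 0 in both groups. Markers of cell type moved as well with EnnA, with Vim at -1.18 and Krt8 at -0.62, both lower, Pdgfra at 1.31, higher, and Epcam (0.13) and Col1a1 (-0.20) not past the threshold. Their part in the members' changes was not tested.

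The share of members that fell was larger at low levels, and the share that rose was larger at high levels. At 2 to 5 FPKM with DMSO, 47.1% of 85 members fell and 9.41% rose, against 31.0% and 20.2% of other genes at that level. Between 5 and 10 FPKM, 37.7% of 61 members fell and 19.7% rose, against 26.6% and 20.6% of other genes. At 10 to 20 FPKM the order turned: 22.7% of 44 members fell and 31.8% rose, against 27.1% and 24.3% of other genes. At 20 FPKM and over, 16.1% of 31 members fell and 35.5% rose, against 20.4% and 28.6%. Centring each change on other genes of its DMSO level gave a members' median of -0.11 in place of -0.16, and centring on genes of the same mean level gave -0.07.

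**Figure D1:**
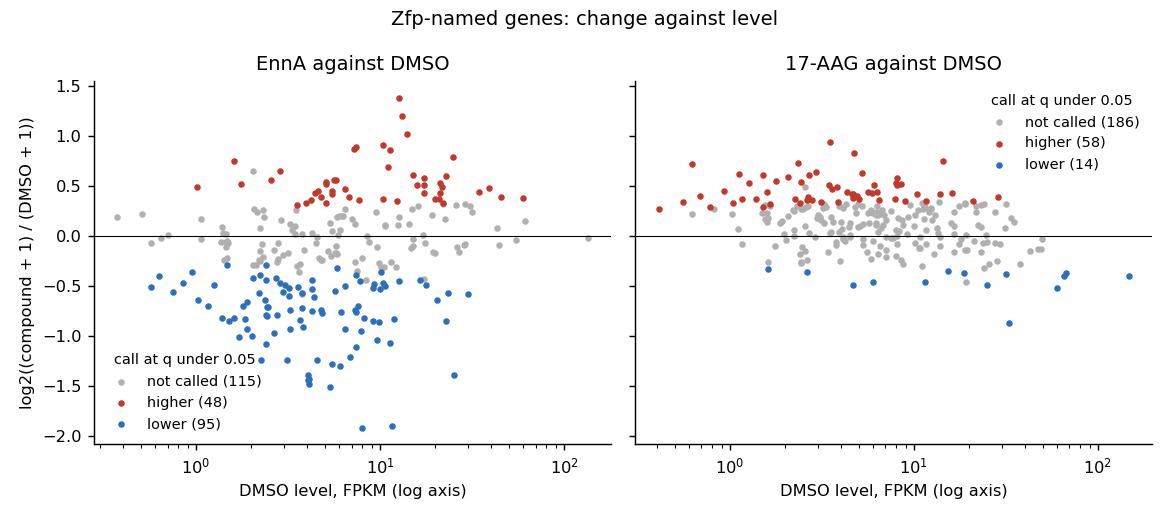
Each point is 1 of the 258 genes, placed by its pooled DMSO FPKM (log axis) and by its log2((compound + 1)/(DMSO + 1)), for EnnA at left and 17-AAG at right. Red points rose, blue points fell and grey points did not pass q under 0.05; with EnnA 95 points are blue and 48 red, with 17-AAG 14 are blue and 58 red.

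With 1 FPKM added, the falls furthest from 0 with EnnA were those of Zfp825 and Zfp760. Zfp825 (mm9 chr13:74617504-74631398) was at 1.37 FPKM with EnnA and 7.97 FPKM with DMSO, a change of -1.92 (at most 0.47). Zfp760 (mm9 chr17:21844707-21862603), whose protein has 16 fingers, was at 2.40 FPKM with EnnA and 11.7 FPKM with DMSO, a change of -1.90 (at most 0.47). As plain FPKM ratios, Zfp825 was 5.80-fold and Zfp760 4.86-fold lower with EnnA, and the order differs: Zfp953 was 5.99-fold lower, Zfp931, which is uncertain, 5.76-fold, Zfp273 4.95-fold and Zfp41 4.92-fold.

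Next came Zfp72, with 1.23 FPKM with EnnA and 5.34 FPKM with DMSO (-1.51, at most 0.37). It lies on mm9 chr13:74508873-74514014, close to Zfp825. Zfp41 was at 0.839 FPKM with EnnA and 4.12 FPKM with DMSO (-1.48). Zfp764, Zfp763 and Zfp345 had like levels, at 0.874, 0.884 and 0.921 FPKM with EnnA and at 4.08, 4.09 and 4.06 FPKM with DMSO, with changes of -1.44, -1.43 and -1.40. Zfp386 was the most abundant of these 8 genes, at 8.97 FPKM with EnnA and 25.2 FPKM with DMSO (-1.39, at most 0.34). None of the 8 passed the threshold with 17-AAG, where their changes ran from -0.28 (Zfp825) to 0.13 (Zfp764).

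The largest rise with EnnA, on either scale, was that of Zfp938 (mm9 chr10:81687601-81704020), a gene with 10 fingers, at 34.8 FPKM with EnnA and 12.7 FPKM with DMSO (1.39, at most 0.34). Zfp346 (mm9 chr13:55206669-55236432), which encodes the double-stranded RNA-binding protein JAZ, was at 31.6 FPKM with EnnA and 13.1 FPKM with DMSO (1.21, at most 0.30). Zfp9 was at 29.5 FPKM with EnnA and 14.01 FPKM with DMSO (1.03, at most 0.25). These 3 genes are the rises of at least 2-fold with 1 FPKM added, and Zfp827 joins them as a plain FPKM ratio (2.11-fold). Zfp451, a SUMO ligase, was at 20.5 FPKM with EnnA and 10.4 FPKM with DMSO (0.91). Zfp787 and Zfp513 were at 14.6 and 14.1 FPKM with EnnA, against 7.38 and 7.19 FPKM with DMSO (0.89 and 0.88). Zfp410, a transcription factor known for activating Chd4, was at 21.3 FPKM with EnnA and 11.3 FPKM with DMSO (0.87). Zfp598, the ubiquitin ligase that marks collided ribosomes, was at 44.2 FPKM with EnnA and 25.05 FPKM with DMSO (0.79, at most 0.20).

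**Figure D2:**
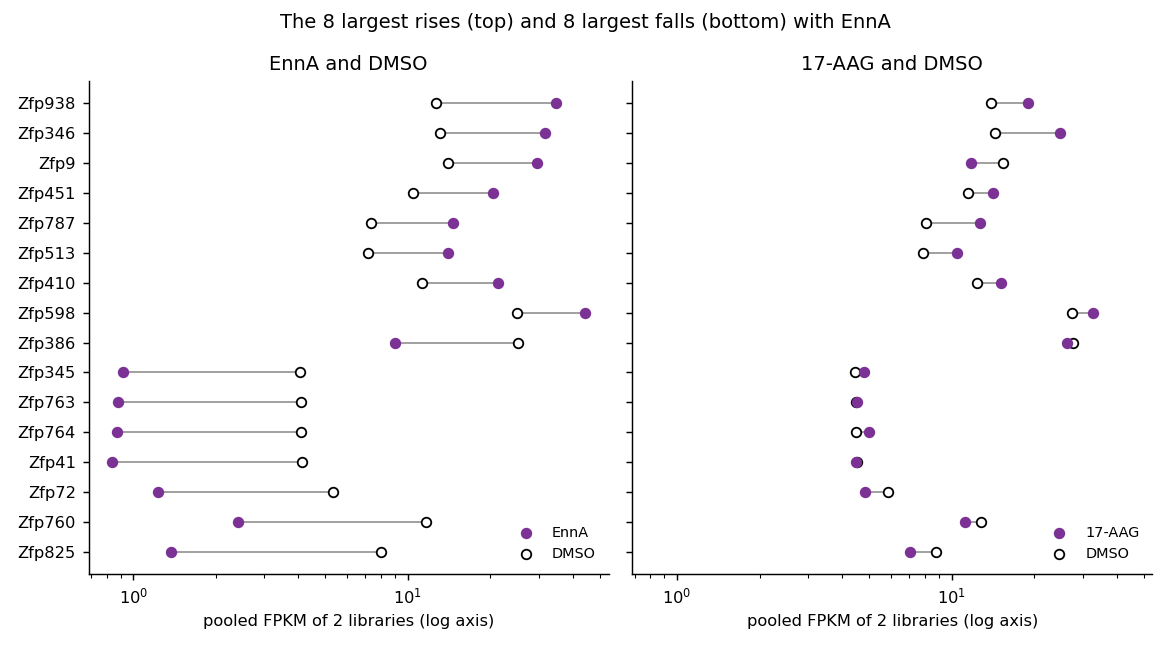
Pooled FPKM of 2 libraries (log axis) for the 8 largest rises and the 8 largest falls with EnnA by log2((EnnA + 1)/(DMSO + 1)), with the compound as a filled and DMSO as an open circle, EnnA table at left and 17-AAG table at right. In the left panel the falls lie between 0.839 and 8.97 FPKM with EnnA, and in the right panel the changes of those 8 genes lie between -0.28 and 0.13.

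The promoters of the 2 genes with the largest falls and the 2 with the largest rises, with 1 FPKM added, are shown so that their CG dinucleotides, the sites of DNA methylation, can be compared. They are RefSeq GRCm38.p6 sequences of 300 bases, 250 before to 50 after the gene's start, 5′ to 3′ on the gene's strand, with each CG in capitals. They lie at chr13:74493912-74494211 on the minus strand for Zfp825, chr17:21707491-21707790 on the plus strand for Zfp760, chr10:82241231-82241530 on the minus strand for Zfp938 and chr13:55105072-55105371 on the plus strand for Zfp346.
Zfp825: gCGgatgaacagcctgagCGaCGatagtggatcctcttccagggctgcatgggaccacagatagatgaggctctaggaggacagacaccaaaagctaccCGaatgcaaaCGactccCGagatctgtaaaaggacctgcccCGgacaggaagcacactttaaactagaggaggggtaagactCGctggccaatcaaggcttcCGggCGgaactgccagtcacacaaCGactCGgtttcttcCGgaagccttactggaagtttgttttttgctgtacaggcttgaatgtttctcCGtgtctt
Zfp760: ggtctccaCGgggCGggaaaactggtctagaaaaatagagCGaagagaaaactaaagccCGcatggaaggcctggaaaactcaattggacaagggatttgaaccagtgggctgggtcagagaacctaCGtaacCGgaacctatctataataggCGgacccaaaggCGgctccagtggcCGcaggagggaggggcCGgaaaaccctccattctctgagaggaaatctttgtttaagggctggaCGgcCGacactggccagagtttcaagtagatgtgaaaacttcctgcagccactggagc
Zfp938: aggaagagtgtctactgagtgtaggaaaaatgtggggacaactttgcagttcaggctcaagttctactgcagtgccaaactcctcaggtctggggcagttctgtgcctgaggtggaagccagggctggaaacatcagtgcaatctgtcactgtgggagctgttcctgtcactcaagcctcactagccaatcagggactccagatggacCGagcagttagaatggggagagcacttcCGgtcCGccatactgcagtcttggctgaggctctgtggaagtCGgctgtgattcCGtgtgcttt
Zfp346: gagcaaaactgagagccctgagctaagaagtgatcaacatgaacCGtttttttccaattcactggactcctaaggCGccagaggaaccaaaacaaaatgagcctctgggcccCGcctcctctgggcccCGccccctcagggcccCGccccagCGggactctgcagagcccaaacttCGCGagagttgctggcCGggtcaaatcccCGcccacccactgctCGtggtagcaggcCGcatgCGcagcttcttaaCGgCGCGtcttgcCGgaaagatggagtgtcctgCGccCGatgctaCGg
Zfp825 and Zfp760, which fell, have 14 and 12 CG in these windows, while Zfp938 and Zfp346, which rose, have 5 and 20. These 4 promoters thus do not sort by direction.

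Over all members a lean was present. The CG dinucleotide, which is its own reverse complement, was counted in the 211 promoter windows matched by symbol. The median was 14 CG per window over those members, 11 in the 79 that fell with EnnA and 20 in the 35 that rose, and 7 over all 27025 promoters. Those 27025 take in genes that neither table lists, so they are not a match for the members, which are all listed. All member windows and 94.2% of all promoters hold at least 1 CG. Split by the observed over expected ratio of CG, 47.9% of the 71 members with the lowest ratios fell with EnnA, 38.0% of the 71 in the middle and 25.4% of the 71 with the highest. Listed genes of other names in the same DMSO range numbered 1446, 2101 and 4487 in these 3 ranges of the ratio. Beside them, the members' promoters were thus poorer in CG by this ratio. Those other genes fell in 32.6, 24.9 and 23.2% of cases, so the same order was present outside the members. The 71 members with the lowest ratios also had lower DMSO levels, with a median of 4.08 FPKM against 7.33 FPKM for the highest 71, and the part of level in this order was not tested.

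With 17-AAG the balance was the other way round. Of the 258 genes, 58 (22.5%) rose and 14 (5.43%) fell, and 186 did not pass the threshold. Over all 11305 genes 15.6% rose and 16.1% fell, and over other genes of the same DMSO range 15.2% rose and 14.6% fell. The median change was 0.17 (quartiles -0.04 and 0.32), against -0.00 for other genes of the range. With 1 FPKM added, 0 members rose and 0 fell at least 2-fold at the authors' Cuffdiff q under 0.05, against 1.39% and 0.920% of all genes. As plain FPKM ratios 3 rose by that much (Zfp3 at 2.19-fold, and Zfp931 and Zfp947, which are uncertain) and 0 fell, against 4.13% and 1.59% of all genes above 0 in both groups. An unadjusted p under 0.05 was listed for 104 members. Of the cell type markers, Col1a1 (1.61) and Krt8 (0.57) were higher with 17-AAG, Vim was lower (-0.48), and Pdgfra (0.23) and Epcam (0.03) did not pass, and their part in the members' changes was not tested.

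The share of members that rose with 17-AAG was near that of other genes at the same DMSO level. At 2 to 5 FPKM 27.2% of 81 members and 27.2% of other genes rose, and at 5 to 10 FPKM 21.7% of 60 members and 20.9% of other genes. Under 1 FPKM, where there were 8 members, 6 of them and 38.5% of other genes rose. Falls were fewer than among other genes in each level range: 2.47% against 7.83% at 2 to 5 FPKM, 1.67% against 8.01% at 5 to 10 FPKM, and 6.25% against 11.5% at 10 to 20 FPKM, for example. Few falls were not particular to the members. Of 118 genes of other names that encode 5 or more fingers, counted as described below, 0.847% fell and 25.4% rose. Centring on other genes of the same DMSO level gave a members' median of 0.06 in place of 0.17.

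**Figure D3:**
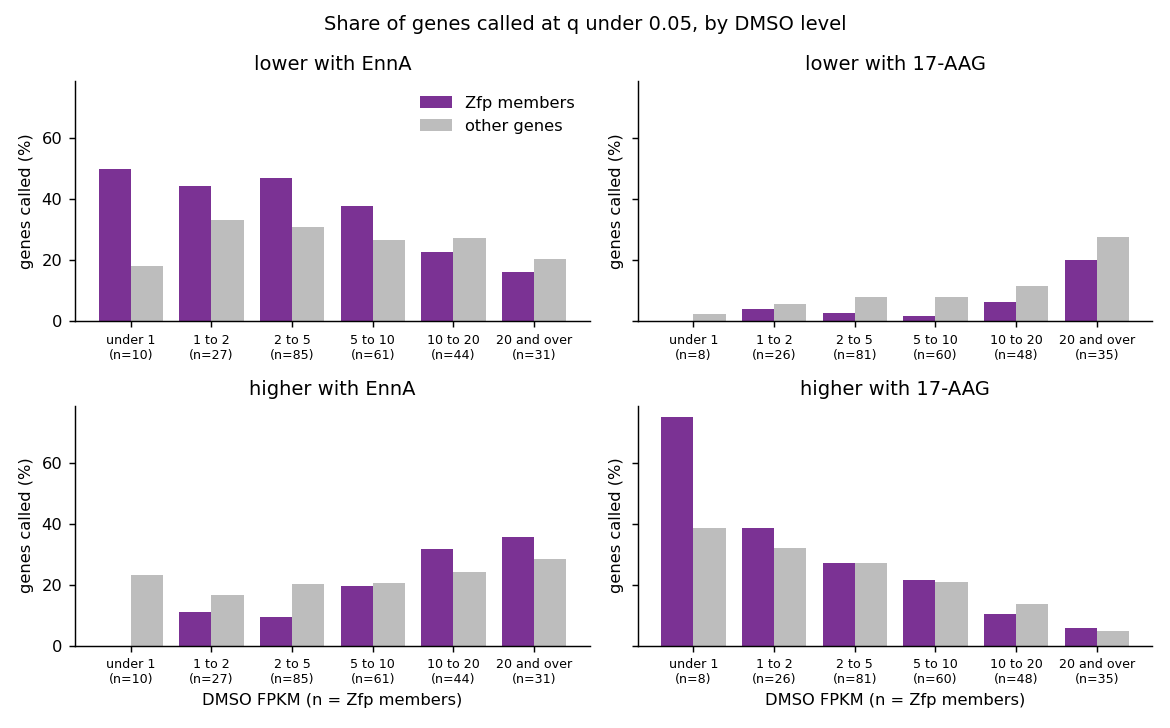
Bars give the percent of genes that fell (upper row) or rose (lower row) at q under 0.05 with EnnA (left) and 17-AAG (right), by DMSO FPKM, for the members in purple and for other genes in grey. The n under each range counts the members; at 2 to 5 FPKM 47.1% of members and 31.0% of other genes fell with EnnA, while 27.2% of both rose with 17-AAG.

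With 1 FPKM added, Zfp3 and Zfp935 had the largest rises with 17-AAG. Zfp3 was at 7.71 FPKM with 17-AAG and 3.52 FPKM with DMSO (0.95, at most 0.23), and Zfp935 at 9.16 FPKM with 17-AAG and 4.70 FPKM with DMSO (0.83, at most 0.21). Zfp346, which also rose with EnnA, was at 24.9 FPKM with 17-AAG and 14.3 FPKM with DMSO (0.75). Zfp408 was at 4.59 FPKM with 17-AAG and 2.36 FPKM with DMSO (0.73). Zfp839 was at 5.12 FPKM with 17-AAG and 2.92 FPKM with DMSO (0.64), and Zfp516, a regulator of the brown fat programme, at 8.70 FPKM with 17-AAG and 5.25 FPKM with DMSO (0.63). Zfp931 and Zfp947 completed the 8, at 1.68 and 2.26 FPKM with 17-AAG and 0.621 and 1.12 FPKM with DMSO, but both have near-identical copies and are uncertain.

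The falls with 17-AAG reached the most abundant members. Zfp52 had the largest, with 17.7 FPKM with 17-AAG and 33.1 FPKM with DMSO (-0.87, at most 0.21), and it also fell with EnnA, at 19.8 FPKM against 30.2 FPKM with DMSO (-0.58). Zfp207 (BuGZ), a spindle and kinetochore protein and the most abundant member, was at 112 FPKM with 17-AAG and 147 FPKM with DMSO (-0.39 (0.15)). With EnnA it was at 132 FPKM, against 135 FPKM with DMSO, and did not pass the threshold. Zfp277 was at 41.6 FPKM with 17-AAG and 60.2 FPKM with DMSO (-0.52), and Zfp948 at 52.0 FPKM with 17-AAG and 67.3 FPKM with DMSO (-0.37). Zfp661, Zfp566 and Zfp472 fell by 0.49, 0.46 and 0.46. Of the 5 most abundant members, Zfp146 alone did not fall with 17-AAG, at 48.7 FPKM against 49.7 FPKM with DMSO, and it rose with EnnA, at 59.9 FPKM against 45.4 FPKM with DMSO (0.39). Falls of abundant genes with 17-AAG were not particular to the members. At 20 FPKM and over with DMSO, 7 of 35 members fell with 17-AAG, against 27.5% of 4674 other genes.

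The compounds, each at its own dose, were set against each other through the difference of their changes, EnnA minus 17-AAG, by a z test on the 2 errors, with p adjusted by the Benjamini-Hochberg method over all genes in both tables. Both changes share the DMSO libraries. The difference was below 0 at adjusted p under 0.05 for 100 members (38.8%) and above 0 for 19 (7.36%), against 18.6% and 19.3% of all 10932 genes and 19.1% and 17.8% of other genes of the same DMSO range. The median difference was -0.29 over the members and -0.01 over the other genes of the range. Level went with this difference outside the members too. Other genes at 2 to 5 FPKM with DMSO had median changes of -0.11 with EnnA and 0.17 with 17-AAG. At 20 FPKM and over their medians were 0.07 and -0.19. The difference was not centred on level, so the part of level in it was not tested.

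The differences furthest below 0 were those of Zfp760 at -1.71 (0.49), Zfp825 at -1.64 (0.50), Zfp935 at -1.58 (0.28), Zfp764 at -1.57 (0.38), Zfp3 at -1.54 (0.28) and Zfp866 at -1.51 (0.34). Zfp3 and Zfp935 moved in opposite directions with the compounds. Zfp3 was at 1.79 FPKM with EnnA and 3.21 FPKM with DMSO (-0.60), and Zfp935 at 2.15 FPKM with EnnA and 4.29 FPKM with DMSO (-0.75), so that both fell with EnnA and rose with 17-AAG. The differences furthest above 0 were those of Zfp9 at 1.38 (0.29), Zfp593 at 1.09 (0.21), Zfp938 at 0.97 (0.37) and Zfp330 at 0.79 (0.21). Zfp9, which rose with EnnA, fell with 17-AAG, at 11.8 FPKM against 15.3 FPKM with DMSO (-0.35 (0.14)).

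Members with roles in RNA handling, ribosomes and translation included rises and no falls with EnnA. Of 11 looked up, 10 were listed; 5 rose and 0 fell with EnnA (median 0.35), and with 17-AAG Zfp346 rose and 4 fell, namely Zfp593, Zfp330, Zfp207 and Zfp277 (median -0.05). Over all genes 24.3% rose and 24.9% fell with EnnA, and 15.6% rose and 16.1% fell with 17-AAG. These 10 members are abundant, from 13.1 to 135 FPKM with DMSO, levels at which 31.8% (10 to 20 FPKM) and 35.5% (20 FPKM and over) of all members rose with EnnA, against 24.3% and 28.6% of other genes. The 4 that fell with 17-AAG were all over 20 FPKM with DMSO. At that level 27.5% of other genes fell with 17-AAG, with a median change of -0.19. Beside Zfp346 and Zfp598, the rises with EnnA were those of Zfp593, Zfp330 and Zfp326. Zfp593, whose yeast counterpart Bud20 assembles the large ribosomal subunit, was at 35.1 FPKM with EnnA and 22.8 FPKM with DMSO (0.60), and at 17.5 FPKM with 17-AAG and 24.99 FPKM with DMSO (-0.49). Zfp330, a nucleolar protein, was at 78.2 FPKM with EnnA and 59.7 FPKM with DMSO (0.38), and at 49.2 FPKM with 17-AAG and 65.5 FPKM with DMSO (-0.40). Zfp326, a subunit of a complex that links transcript elongation to splicing, was at 25.2 FPKM with EnnA and 17.3 FPKM with DMSO (0.51). Zfp622, counterpart of a yeast ribosome maturation factor, Zfp259 (ZPR1) and Zfp106 had changes of 0.31, 0.31 and 0.24 with EnnA and did not pass the threshold. Of the 3 listed members with ubiquitin, SUMO or signalling roles, Zfp451 rose with EnnA, while Zfp706 (0.33) and Zfp91 (-0.09, uncertain) did not pass, and none passed with 17-AAG.

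Repressors of imprinted genes and retroelements split by gene. Of 12 looked up, 10 were listed, and with EnnA 6 fell and 3 rose (median -0.53), while with 17-AAG 1 rose and 0 fell (median 0.20). The share that rose with EnnA is near the 24.3% of all genes, while 24.9% of all genes fell. These 10 members had from 2.36 to 21.2 FPKM with DMSO. Of all members, 47.1% fell with EnnA at 2 to 5 FPKM and 37.7% at 5 to 10 FPKM. Of the 117 members with the wider KRAB motif described below, 51.3% fell and 11.1% rose, so falls are common in this class of members. With 17-AAG 15.6% of all genes rose and 16.1% fell. The pair that protects imprints rose with EnnA: Zfp445 was at 31.1 FPKM with EnnA and 21.2 FPKM with DMSO (0.53 (0.15)), and Zfp57 at 9.36 FPKM with EnnA and 6.45 FPKM with DMSO (0.48 (0.15)). Zfp110 rose too (0.37), but it has a near-identical copy, Zfp369. Zfp27 was at 2.88 FPKM with EnnA and 6.42 FPKM with DMSO (-0.94, at most 0.23), and Zfp961 at 9.05 FPKM with EnnA and 12.7 FPKM with DMSO (-0.45). Zfp568, which silences a placental transcript of Igf2, was at 2.51 FPKM with EnnA and 4.37 FPKM with DMSO (-0.61), against 6.11 FPKM with 17-AAG and 4.79 FPKM with DMSO, which did not pass (0.30). The falls of Zfp932 (-0.85), a repressor of endogenous retroviruses, of Zfp960 (-0.82) and of Zfp708 (-0.64) are uncertain because of copies or a shared locus. Zfp809, which silences murine leukaemia virus through its primer binding site, was at 8.01 FPKM with EnnA and 10.1 FPKM with DMSO (-0.31) and did not pass.

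Transcription factors and cofactors without a KRAB domain included rises and falls with EnnA. Of 27 looked up, 20 were listed in both tables; 8 rose and 5 fell with EnnA (median -0.02). With 17-AAG, where Zfp423 was listed as well, 6 rose and 1 fell of 21 (median 0.30). Over all genes 24.3% rose and 24.9% fell with EnnA, so the falls of the list are at the background, and 15.6% rose and 16.1% fell with 17-AAG. Zfp217, the counterpart of an oncogene amplified in human breast cancer, had the largest fall of the list, with 4.14 FPKM with EnnA and 9.61 FPKM with DMSO (-1.05, at most 0.26). With 17-AAG it was at 12.8 FPKM, against 10.5 FPKM with DMSO (0.26 (0.14)), and did not pass. Zfp281, a pluripotency factor, fell by 0.57 with EnnA, Zfp644, a partner of the methyltransferases G9a and GLP, by 0.52, and Zfp704 by 0.44, while Zfp687, in a shared locus and uncertain, was at -0.74. Zfp410 and Zfp827 had the largest rises of the list, Zfp410 first with 1 FPKM added (0.87 against 0.75) and Zfp827 first as a plain FPKM ratio (2.11-fold against 1.89-fold). Zfp827 was at 3.40 FPKM with EnnA and 1.62 FPKM with DMSO (at most 0.19), and it rose with 17-AAG as well, at 3.07 FPKM against 1.77 FPKM with DMSO (0.56). Zfp592, Zfp335, Zfp532, Zfp148, Zfp516 and Zfp462 rose with EnnA by 0.56, 0.56, 0.53, 0.43, 0.40 and 0.31. Zfp143, an activator that binds promoters and chromatin loop anchors, was the one of the list that fell with 17-AAG (-0.37 (0.14)). Zfp703, a luminal breast cancer oncogene in human, did not pass with either compound (-0.06 with EnnA, 0.31 with 17-AAG).

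The number of fingers a gene encodes, its KRAB domain and its place on the chromosome were set beside its change, as descriptions with no test. Fingers were counted by a script in the longest GENCODE coding sequence of 256 members, as 2 cysteines and 2 histidines with 2, 12 and 3 to 5 residues between them, so that fingers of other spacing were missed. The 39 members with 1 to 4 fingers had a median change of 0.12, with 11 rises and 3 falls. The 67 members with 5 to 9 had a median of -0.10, with 15 rises and 22 falls. The 87 members with 10 to 14 had a median of -0.29, with 14 rises and 42 falls, and the 53 members with 15 or more a median of -0.30, with 6 rises and 25 falls. The 10 members with none found had 2 of each and a median of -0.04. Levels moved with finger number, from a median of 13.1 FPKM with DMSO at 1 to 4 fingers to 5.32 and 3.23 FPKM at 10 to 14 and at 15 or more. Over all genes 24.9% fell and 24.3% rose with EnnA. Among members at 2 to 10 FPKM, 12.5% of 16 with 1 to 4 fingers fell, 30.8% of 39 with 5 to 9, 58.8% of 51 with 10 to 14 and 48.5% of 33 with 15 or more. Of other genes, 31.0% fell at 2 to 5 FPKM and 26.6% at 5 to 10 FPKM, so the share with 5 to 9 fingers is near theirs. With 17-AAG the medians of these groups lay between 0.13 and 0.18 in no order of finger number, and at 0.27 for the 10 with none.

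**Figure D4:**
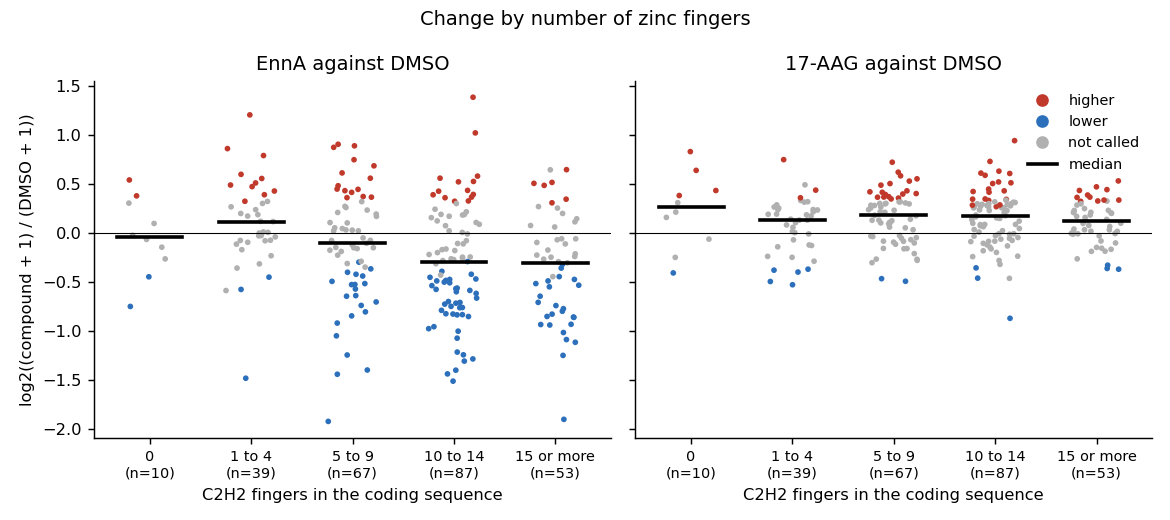
Each point is 1 member, placed by the number of C2H2 fingers found in its coding sequence and by log2((compound + 1)/(DMSO + 1)), with EnnA at left and 17-AAG at right; bars are medians and colours are calls at q under 0.05. The EnnA medians lie at 0.12 for 1 to 4 fingers and at -0.30 for 15 or more, while those of 17-AAG lie between 0.13 and 0.27.

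KRAB domains were looked for by a short peptide motif of the domain in the same coding sequences, in a strict form and in a wider form chosen after the data were seen. The wider form was added because the strict one missed known KRAB genes. No domain annotation was used, so members without a match may still carry the domain. Of 117 members with the wider motif, 51.3% fell and 11.1% rose (median -0.39), against 24.5% and 25.2% of 139 without a match to it (median -0.05). With the stricter motif, 44.7% of 85 members with a match fell, against 32.7% of 171 without a match. At 2 to 10 FPKM with DMSO the wider motif kept the order, with 54.2% of 72 against 31.5% of 73, but the stricter one turned it, with 41.2% of 51 against 43.6% of 94. Both features went together: of members with 10 or more fingers, 53.6% of 84 with the wider motif and 39.3% of 56 without it fell, and of those with under 10 fingers 45.5% of 33 and 14.5% of 83. Genes of other names showed like shares, with 24 of 50 that have the wider motif lower with EnnA (48.0%) and 2 higher, and 20 of 53 that have 10 or more fingers lower (37.7%) and 7 higher. With 17-AAG the medians were 0.14 with the wider motif and 0.18 without. Among genes of other names, 12 of the 50 with the wider motif rose with 17-AAG and 0 fell. Of the 53 with 10 or more fingers, 14 rose and 0 fell.

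Neighbouring members were grouped into runs with gaps of at most 500 kb on mm9. The 168 members in runs of 2 or more included 73 that fell and 26 that rose with EnnA (median -0.26), while the 90 that lay alone included 22 of each (median -0.02). Runs of 4 or more numbered 12 and held 107 members, of which 48 fell (44.9%) and 14 rose (13.1%), against 24.9% and 24.3% of all genes. Within the same runs lay 48 listed genes that are not members, of which 16 fell (33.3%) and 7 rose (14.6%). These 48 were set apart by name alone, so zinc finger genes of other names may be among them. Genes in a run are related by sequence and share a region, so they are not independent observations.

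The run of 13 members on mm9 chr13:67139529-67931922 had 8 falls and 0 rises with EnnA, a median of -0.64 and 12 of 13 changes below 0, beside 3 falls and 0 rises among 8 other genes in it (median -0.24). With 17-AAG its median was 0.13, with 2 rises and 0 falls. Its largest falls were those of Zfp953, at 0.376 FPKM with EnnA and 2.25 FPKM with DMSO (-1.24), Zfp87, at 2.90 FPKM with EnnA and 7.42 FPKM with DMSO (-1.11), and Zfp273, at 0.346 FPKM with EnnA and 1.71 FPKM with DMSO (-1.01). The run of 20 members on mm9 chr17:21145904-23736454, which holds Zfp760, had 12 falls and 3 rises with EnnA and a median of -0.51, beside 1 fall and 0 rises among 5 other genes (median -0.13). It was mixed in its members: Zfp40 (-1.08) and Zfp943 (-1.07) fell, Zfp945 rose (0.52), and the abundant Zfp948 did not pass. With 17-AAG its median was 0.01, with 3 rises and 3 falls.

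Another run, of 9 members on mm9 chr17:32902441-33768659, held 4 falls and 0 rises with EnnA (median -0.29), beside 3 falls and 0 rises among 5 other genes (median -0.80). The 4 members on mm9 chr2:149940142-150310799 held 3 falls (median -0.78), beside 1 fall among 3 other genes (median -0.48). The run of 8 members on mm9 chr6:47785659-48573226 went the other way, with 4 rises and 1 fall with EnnA (median 0.30), beside 1 rise among 3 other genes (median 0.28), and with 4 rises and 0 falls with 17-AAG (median 0.33). In it Zfp777 rose with both compounds, by 0.42 with EnnA and by 0.51 with 17-AAG, whereas Zfp862 fell by 0.39 with EnnA and rose by 0.54 with 17-AAG. The genes of these runs named here beyond Zfp760 and Zfp948 were chosen after their values were seen.

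**Figure D5:**
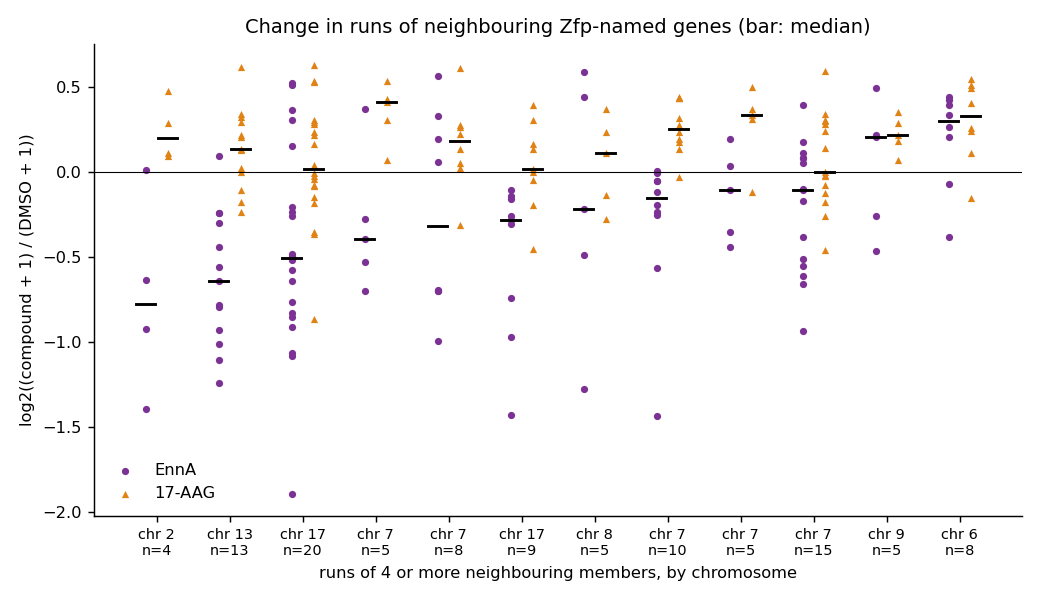
Each point is 1 member in a run of 4 or more neighbours, placed by run (chromosome and number of members, ordered by the EnnA median) and by log2((compound + 1)/(DMSO + 1)); circles are EnnA, triangles 17-AAG and bars medians. The EnnA medians run from -0.78 on chromosome 2 to 0.30 on chromosome 6, while the 17-AAG medians lie between -0.00 and 0.41.

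The genes through which KRAB proteins act were not members and changed one by one. Of 34 corepressor and heterochromatin genes, 33 were listed, with 4 rises and 7 falls with EnnA (median -0.04) and 8 rises and 3 falls with 17-AAG (median 0.09). Over all genes 24.3% rose and 24.9% fell with EnnA, and 15.6% rose and 16.1% fell with 17-AAG. Trim28 was at 51.6 FPKM with EnnA and 48.8 FPKM with DMSO (0.08 (0.15)) and did not pass, and it rose to 71.1 FPKM with 17-AAG, against 53.5 FPKM with DMSO (0.40 (0.15)). Setdb1 passed with neither compound. Uhrf1, which guides maintenance DNA methylation, was at 16.2 FPKM with EnnA and 34.1 FPKM with DMSO (-1.03), and Dnmt1, the enzyme it guides, at 26.5 FPKM with EnnA and 35.8 FPKM with DMSO (-0.42). Cbx5, which encodes heterochromatin protein 1 alpha, and Hdac1 both fell by 0.70 with EnnA. The 4 rises with EnnA were those of Gatad2b, a subunit of the NuRD deacetylase complex, at 26.6 FPKM with EnnA and 12.9 FPKM with DMSO (0.99), of Morc2a, a partner of the HUSH silencing complex, at 26.0 FPKM with EnnA and 13.2 FPKM with DMSO (0.93), and of Daxx and Mta2 (0.35 each). Atf7ip, the partner of SETDB1, fell by 0.39 with EnnA and rose by 0.48 with 17-AAG. Whether these changes bear on those of the zinc finger genes was not tested.

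Counts for other gene families that encode proteins with zinc-binding domains are given with no test of a family. With EnnA 24.3% of all genes rose and 24.9% fell. Of 37 Zbtb genes 9 rose and 10 fell, near those shares, of 16 Zscan and Zkscan genes 3 rose and 3 fell, and of 17 Zc3h genes, which bind RNA, 6 rose and 2 fell. Of 57 Rnf genes 15 rose and 10 fell, and of 34 Trim genes 6 rose and 16 fell, beside 17 rises and 2 falls of Trim genes with 17-AAG, where 15.6% of all genes rose and 16.1% fell. Of 17 Zdhhc genes 5 rose and 3 fell, of 8 Zfyve genes 2 rose and 1 fell, and of 10 Zmym and Zmynd genes 1 rose and 4 fell with EnnA. With 17-AAG, rises and falls numbered 5 and 2 for Zbtb, 4 and 0 for Zscan and Zkscan, and 2 and 1 for Zc3h. They numbered 7 and 6 for Rnf, 2 and 3 for Zdhhc, 0 and 0 for Zfyve, and 4 and 0 for Zmym and Zmynd.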

How the data were processed

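RNA sequencing was done on 6 libraries, 2 for each of EnnA, 17-AAG and DMSO. STAR, Cufflinks, Cuffdiff and the mouse build mm9 are named in the submitters' processing notes, with tool versions not given in the sources used here. Each group value in the 2 deposited tables was taken to be FPKM, pooled by the authors over both libraries. The deposited tables also hold a log2 fold change of DMSO over compound, which was not used beyond a check of its sign, and the authors' Cuffdiff p-value (lowest value 5e-05) and q-value, adjusted over all genes listed. Loci are in mm9 and printed as deposited, with no statement there of whether counting begins at 0 or 1. Values per library and read counts were not used here, so depth, and the precision it gives, is unknown and no SD was computed.

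From these values log2((compound + 1)/(DMSO + 1)) was computed with a pseudocount of 1 FPKM. Its standard error was taken as its size over the normal quantile that matches the deposited 2-sided p, an upper limit for the 75 members with EnnA and 13 with 17-AAG at the lowest p. Calls used q under 0.05. The compounds were compared by a z test that takes these errors as independent although DMSO is shared, with Benjamini-Hochberg adjustment over 10932 genes and without p for single genes. On simulated data the test recovered 16.0% of 50 differences of 1.5-fold and 78.0% of 50 of 2-fold, with 9 false calls among 10732 unchanged genes. Those data had independent errors of exactly the implied size that the test was given, so few false calls were built in. They could not check the effect of the shared DMSO or of implied errors that are wrong or are upper limits.

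Coding sequences came from GENCODE vM21 for 256 members (4 by synonym) and promoters from RefSeq GRCm38.p6 for 213; both are another build than mm9, so no coordinates were carried over. Copies were found with BLAST 2.17.0 (at least 90% identity over 80% of the coding sequence). Python 3.11.15, pandas 2.3.3, numpy 2.4.6 and scipy 1.17.1 were used. Named members are the 8 largest rises and 8 largest falls among called members and the 5 most abundant in each comparison, those of the role lists, and those said to be chosen later. The members and lists were chosen with earlier results of these data known. Alternatives were a q under 0.01, a 2-fold minimum (with 1 FPKM added or as a plain ratio), other pseudocounts and a 1 FPKM minimum. Others were centring by level alone or with transcript length or coding GC, and leaving out uncertain members.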

Additional observations from a re-analysis of the deposited data

How the results depend on the processing

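Counts depended on the threshold. With EnnA, 3 members rose and 19 fell at least 2-fold with 1 FPKM added, and 4 rose and 47 fell at least 2-fold as plain FPKM ratios, a setting chosen after seeing the data. With 17-AAG, 29 rose and 4 fell at q under 0.01. At 2-fold with 17-AAG, 0 rose and 0 fell with 1 FPKM added, and 3 rose and 0 fell as plain ratios, by the authors' Cuffdiff q, while 104 members had an unadjusted p under 0.05. At adjusted p under 0.01 the difference between the compounds was above 0 for 7 members. Of the main counts and medians under the alternatives run, the other 51 values kept their direction. Counts stayed within 1.5 times and medians within 1 median error of a member. That error was 0.15 with EnnA and 0.14 with 17-AAG, near the size of the medians themselves (-0.16 and 0.17). Staying within it thus says little about how firm the medians are. The EnnA median ran from -0.07 to -0.20 and the 17-AAG median from 0.05 to 0.21. No value reversed, and 19 calls of single named members were lost, all at q under 0.01. No paired analysis was possible because each deposited value pools both libraries of a group, and leaving out each replicate was not run for the same reason. Depth is unknown, so low-level members are limited by the implied errors alone.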
